A study of Arabidopsis thaliana with 3 samples.

Results

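Genes for proteins that modify pectin were followed across reproductive development of Arabidopsis thaliana plants that overexpress ABAP1, an Armadillo BTB protein. They were the polygalacturonase gene AT5G48140, the pectin methylesterase gene AT1G23200 and the gene AT2G10970 of the family of invertase and pectin methylesterase inhibitors. They are 3 of the 5413 genes that could be named from a probe listing a single gene, and they were chosen with their ratios already known, so the ratios below describe them and no test was made. ABAP1OE plants carry the ABAP1 coding sequence behind the 35S promoter of cauliflower mosaic virus, which drives expression throughout the plant, in the Col-0 background, and were compared with WT Col-0 plants. The number of transgenic lines was not given in the sources used here. Pools of flower buds at stage 13, of open flowers at stage 14 and of siliques at stages 15 to 16 were hybridised to 2-colour arrays of long oligonucleotides, with ABAP1OE RNA in one channel and WT RNA of the same stage in the other.

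The submitters describe 3 biological replicates for each stage, but the values hold 1 combined log2 ratio of ABAP1OE over WT per probe and stage. Each stage is therefore 1 sample, no error between plants and no p-value could be computed, and differences between stages were not tested. A log2 ratio of -1 is a level 2-fold lower in ABAP1OE than in WT. The sign of the flower bud column was set beside the signed list of changed genes of the study, drawn from the same arrays. All 46 genes compared had the same sign. For open flowers and siliques the direction rests on the labels and is likely rather than settled. All values are given in the labelled direction, and if those columns ran the other way, every open flower and silique ratio would change sign, with lower and higher changing places. Each column had a probe median of 0. Across the 5413 genes, Pearson's r was 0.39 between flower buds and open flowers, 0.33 between open flowers and siliques and 0.24 between flower buds and siliques, a description of genes that are not independent replicates. With the later columns turned, r with flower buds would be negative for each of them. How far the signal behind each ratio stood above background is unknown, because no intensities were used.

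Pectin is the gel-forming polysaccharide of the primary wall and of the middle lamella between plant cells. Its main chain, homogalacturonan, is secreted in a methyl-esterified form. Pectin methylesterases remove the methyl groups, proteinaceous inhibitors bind these enzymes and hold them back, and polygalacturonases cut the de-esterified chain. The inhibitor family is related to inhibitors of invertase, and its sequence alone does not tell which enzyme a member binds. In flowers these proteins are known for their work in pollen tube growth, where the esterification of pectin sets the stiffness of the tube tip, and in the separation of cells during anther and fruit opening.

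AT2G10970, the inhibitor gene, had the lowest ratio of the 3 genes in flower buds and, in the labelled direction, at both later stages. Its log2 ratio stood at -1.37 in flower buds, at -0.69 in open flowers and at -0.42 in siliques. These are levels 2.59-fold, 1.61-fold and 1.34-fold lower in ABAP1OE than in WT. The gene was thus below WT in flower buds, where it was farthest from it, and at the later stages in the labelled direction. With the open flower and silique columns turned, its ratios there would be 0.69 and 0.42, the highest of the 3 genes. It is the only one of the 3 genes in the study's own list of changed flower bud genes, which was drawn from the same arrays and is not independent evidence of its direction. In flower buds 166 of 5413 genes (3.07%) had a ratio at or below that of AT2G10970, in open flowers 247 genes (4.56%) and in siliques 583 genes (10.8%).

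AT5G48140, the polygalacturonase gene, was also on the lower side at each stage in the labelled direction. Its log2 ratio stood at -0.81 in flower buds, at -0.61 in open flowers and at -0.12 in siliques. These correspond to levels 1.75-fold, 1.53-fold and 1.09-fold lower. The silique value lay close to WT, inside the middle part of all genes, while the values in flower buds and open flowers lay in the lower tail. A ratio at or below that of AT5G48140 was found for 305 flower bud genes (5.63%), 288 open flower genes (5.32%) and 1960 silique genes (36.2%).

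AT1G23200, the pectin methylesterase gene, stayed near WT. Its log2 ratio stood at -0.16 in flower buds, at 0.30 in open flowers and at 0.14 in siliques, which is a level 1.12-fold lower in flower buds and 1.23-fold and 1.10-fold higher at the later stages. It was the only one of the 3 genes with ratios on both sides of 0 in the labelled direction. With the later columns turned, it would be below 0 throughout and the other genes on both sides. In flower buds 1369 genes (25.3%) were at or below its value. In open flowers 695 genes (12.8%) were at or above it, and in siliques 1742 genes (32.2%).

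**Figure D1:**
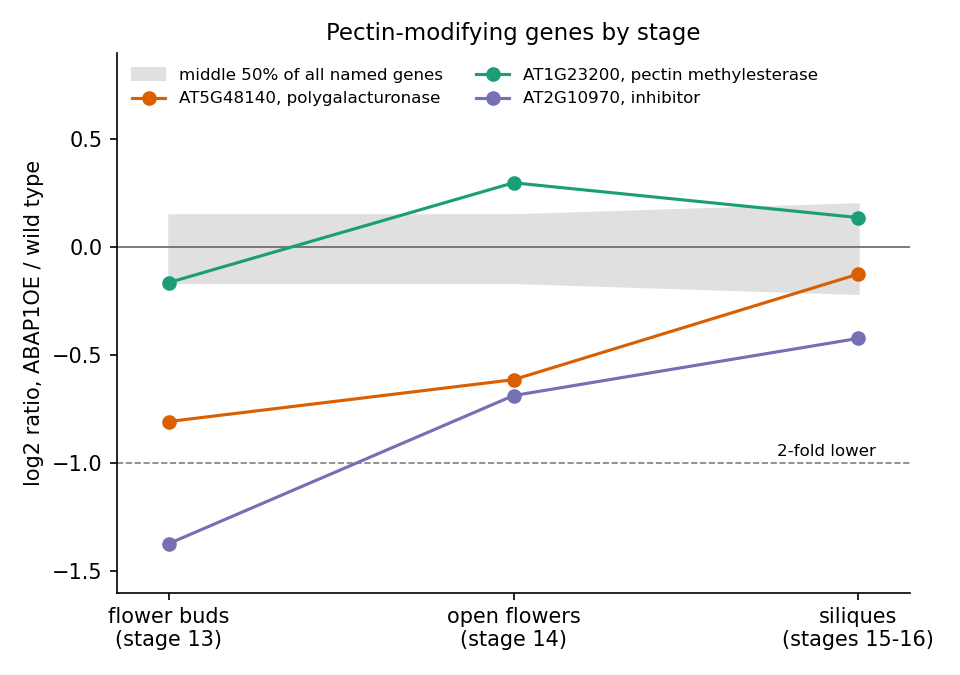
Log2 ratio of ABAP1OE over WT (vertical axis) for the polygalacturonase, pectin methylesterase and inhibitor genes in flower buds, open flowers and siliques (horizontal axis), 1 combined value per point with no error available; the grey band spans the middle 50% of the 5413 named genes. In the labelled direction AT2G10970 lies lowest at each stage, from -1.37 to -0.42, AT5G48140 comes up from -0.81 to -0.12, and AT1G23200 stays between -0.16 and 0.30.

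A size of 2-fold was reached by 1 of the 3 genes at 1 of the 3 stages, AT2G10970 in flower buds. Of all named genes, 4.40% were at least 2-fold lower in flower buds, with 2.81% and 2.36% at the later stages, and 1.11%, 1.27% and 1.24% were at least 2-fold higher. Since the ratios of these same arrays were known when the genes were chosen, nothing is read from the count. The array values are folds written with 2 decimals, and a block of 380 flower bud probes stands at exactly -2.21. None of the 9 ratios of the 3 genes was at that value or beyond it.

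**Figure D2:**
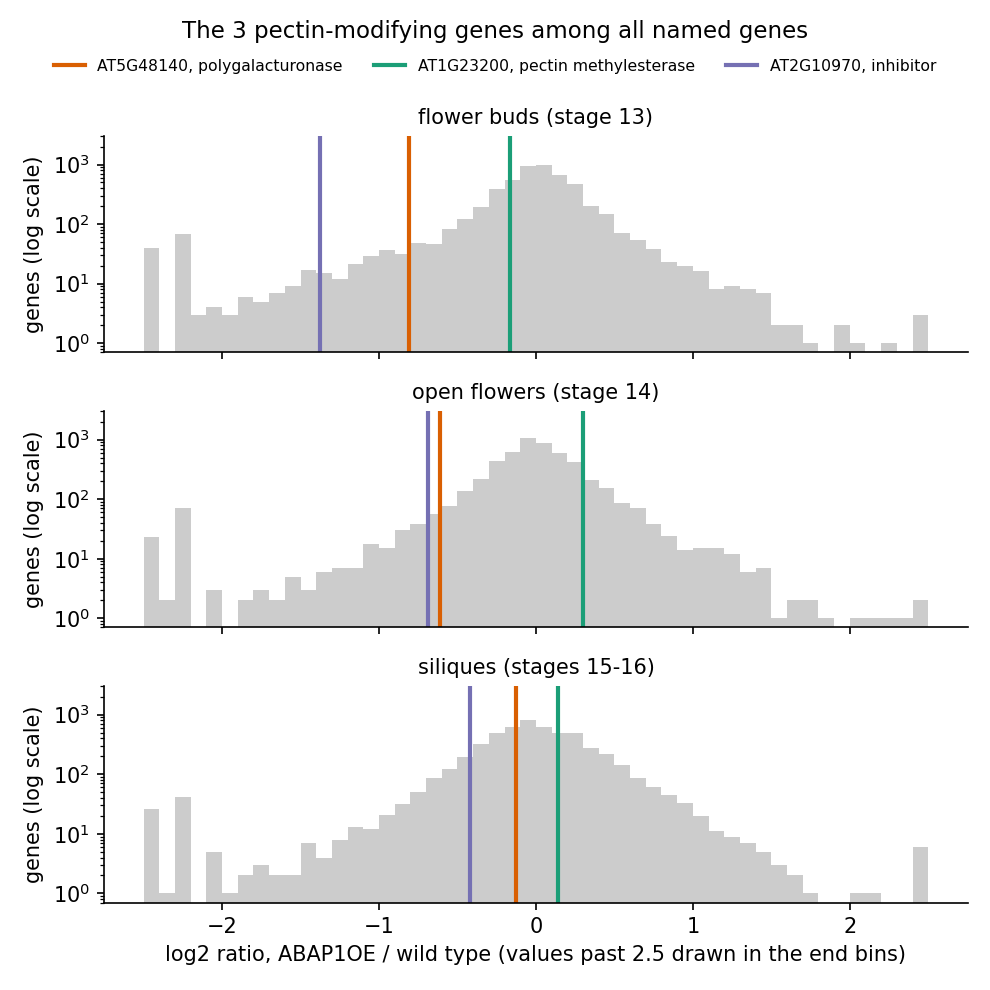
Histograms of the log2 ratio of ABAP1OE over WT (horizontal axis) for the 5413 named genes in flower buds, open flowers and siliques, with the number of genes on a logarithmic vertical axis and a coloured line at each of the 3 pectin genes. The line of AT2G10970 stands in the lower tail in flower buds at -1.37, and the lines of all 3 genes lie between -0.42 and 0.14 in siliques.

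The 3 genes kept 1 order at each stage in the labelled direction, with AT2G10970 lowest, AT5G48140 next and AT1G23200 highest. This is an order of single genes and not of their classes, described further on. With the later columns turned it would run the other way in open flowers and siliques. The log2 ratio of the inhibitor gene minus that of the methylesterase gene was -1.21 for flower buds, -0.99 for open flowers and -0.56 for siliques. The polygalacturonase gene minus the methylesterase gene gave -0.64, -0.91 and -0.26. The inhibitor gene minus the polygalacturonase gene gave -0.57, -0.07 and -0.30. How far such gaps exceed the error is unknown for these probes. As a yardstick, genes with several probes of their own and differing values had a typical SD between probes of 0.17 for flower buds, 0.15 for open flowers and 0.26 for siliques, from 48 to 51 genes, which describes probes and not plants. These are roots of the median variance, and roots of the mean variance were larger, at 0.31, 0.30 and 0.35. Smaller than the typical SD were the gap of -0.07 in open flowers, the silique gap of -0.26 between AT5G48140 and AT1G23200, the silique ratio of AT5G48140 and the flower bud and silique ratios of AT1G23200. The silique gap of -0.30 and the open flower ratio of AT1G23200 were also inside the larger SD.

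In the labelled direction all 3 ratios were higher in siliques than in flower buds. The log2 ratio of AT2G10970 was higher by 0.95 in siliques than in flower buds, and 289 of 5413 genes (5.34%) had a difference as large in that direction. For AT5G48140 the difference was 0.68, reached by 491 genes (9.07%), and for AT1G23200 it was 0.30, reached by 1302 genes (24.1%). With the silique column turned these differences would be 1.80 (3.33% of genes), 0.93 (7.09%) and 0.03 (48.4%), so that AT1G23200 would hardly differ between these stages. In the labelled direction the steps were unequal. AT2G10970 was higher by 0.69 in open flowers than in flower buds and by 0.26 in siliques than in open flowers, while for AT5G48140 the same steps were 0.19 and 0.49. For AT1G23200 they were 0.46 and -0.16. The steps of 0.26, 0.19 and -0.16 were smaller in size than the larger SDs between probes, 0.31, 0.30 and 0.35. So was the difference of 0.30 for AT1G23200 between flower buds and siliques, set beside the SDs of these stages. The SDs are of single values, and a difference between values can vary more. Whether the steps of a gene differ was not tested.

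Ratios below 0 at all 3 stages, lowest in flower buds and highest in siliques, were shared by AT2G10970 and AT5G48140 and were found in 146 genes, 2.70% of those named. The pattern of AT1G23200, below 0 in flower buds and above 0 at both later stages, was found in 586 genes (10.8%). As low as AT2G10970 in flower buds and also as low as it in open flowers were 89 genes (1.64%), and as low as AT5G48140 at both of these stages were 134 genes (2.48%).

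The genes whose 3 ratios lay nearest to each of these were taken by Euclidean distance over the 3 stages, the first 5 for each. This distance is the same if a column is turned. Nearest to AT2G10970 was AT1G58120 at a distance of 0.08, with log2 ratios of -1.32, -0.71 and -0.48 from flower buds to siliques. AT1G05020 (0.10) and AT2G19010 (0.11) followed. The fourth was EXPB5 at 0.16, a beta-expansin gene of the family that loosens cell walls, with -1.44, -0.58 and -0.32. The fifth was AT3G27100 at 0.23.

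Nearest to AT5G48140 were AT2G46360 (0.10), AT4G03160 (0.12), AT2G38500 (0.15), AT4G33860 (0.15) and NRAMP5 (0.19), the last of the NRAMP family of metal transporters. NRAMP5 had log2 ratios of -0.89, -0.63 and 0.04. Nearest to AT1G23200 were AT1G27700 (0.05), AT3G55190 (0.06), AT1G19025 (0.07), AT5G58280 (0.09) and AT2G30650 (0.09), close distances in a range where most genes lie. None of the 15 is in the list of pectin genes used below. That list holds only 38 other genes among the 5413 named, so nothing is read from this. Of the genes next to the 3 on their chromosomes, AT5G48130 beside AT5G48140 had a probe of its own, with log2 ratios of -0.34, 0.38 and -0.16.

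The other genes of pectin metabolism were taken from a list of 260, the 3 genes included, grouped by enzyme class from general knowledge of these families. Of the list, 41 had a probe of their own. In flower buds 2 of the 41 were at least 2-fold lower and 0 higher, or 4.88% beside 4.40% of all named genes, and 1 of the 2 was AT2G10970, chosen with its ratio known. Of the 38 other genes, 1 (2.63%) was lower at the first stage, 1 (2.63%) at the second and 0 at the last, beside 4.40%, 2.81% and 2.36% of all named genes. The median log2 ratio of the 41 genes was -0.03 for flower buds, -0.07 for open flowers and -0.03 for siliques, beside medians of 0.01, -0.01 and -0.01 over all named genes.

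Polygalacturonases, which cut the pectin chain, had 12 genes with a probe of their own. AT5G48140 was the lowest of them in flower buds and in open flowers and in siliques it shared the third lowest place with AT1G78400. The other 11 ran from -0.45 to 0.49 in flower buds with a median of 0.00, from -0.30 to 0.37 in open flowers and from -0.48 to 0.44 in siliques. AT5G14650 was highest in flower buds at 0.49, AT5G39910 in open flowers at 0.37, and AT4G18180 and AT5G17200 in siliques at 0.44. The lowest in siliques was AT1G56710 at -0.48. In flower buds and open flowers AT5G48140 thus stood below the other genes of its class with a probe of their own, but 5 of 29 polygalacturonase probes shared by several genes were lower in flower buds and 7 of 29 in open flowers.

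Pectin methylesterases, which remove methyl groups from pectin, had 11 genes. AT1G23200 was the fifth lowest in flower buds, the highest in open flowers and the eighth from the lowest in siliques. The class held the listed genes farthest from WT besides AT2G10970. AT4G15980 had log2 ratios of -1.32, -0.96 and 0.14 from flower buds to siliques, and AT5G61680 had -0.25, -1.04 and -0.10. AT4G15980 was at least 2-fold lower in flower buds and AT5G61680 in open flowers. Without AT1G23200 the class medians were -0.06, -0.31 and -0.07 in the same order. In siliques the lowest was AT3G42160 at -0.87.

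The inhibitor family had 10 genes with a probe of their own, of which AT2G10970 was the lowest in flower buds and siliques. In open flowers AT4G15750 was lower, at -0.94. The next lowest in flower buds was AT1G54620 at -0.69, which had -0.30 in open flowers and -0.41 in siliques. Without AT2G10970 the other 9 genes ran from -0.69 to 0.33 in flower buds with a median of -0.07, and 0 of them were at least 2-fold lower or higher at any stage. AT3G17130 was the highest in flower buds, at 0.33. Of 26 inhibitor probes shared by several genes, 6 were below AT2G10970 in flower buds and 5 in open flowers. In siliques 13 were below it and 13 above, so there it was not low beside the shared probes.

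Pectate lyases, which split the chain by elimination, had 6 genes, all of them above 0 in flower buds, from 0.06 to 0.38 with a median of 0.30, and AT3G27400 was the highest. At the later stages their medians were -0.06 and 0.01. Of all named genes, 2729 of 5413 were above 0 in flower buds. The acetylesterase gene AT1G09550 had -0.24, -0.21 and 0.14, and the galacturonosyltransferase gene GAUT15, of pectin synthesis, had -0.04, 0.26 and -0.12. The 2 listed genes of polygalacturonase-inhibiting proteins had no probe of their own.

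**Figure D3:**
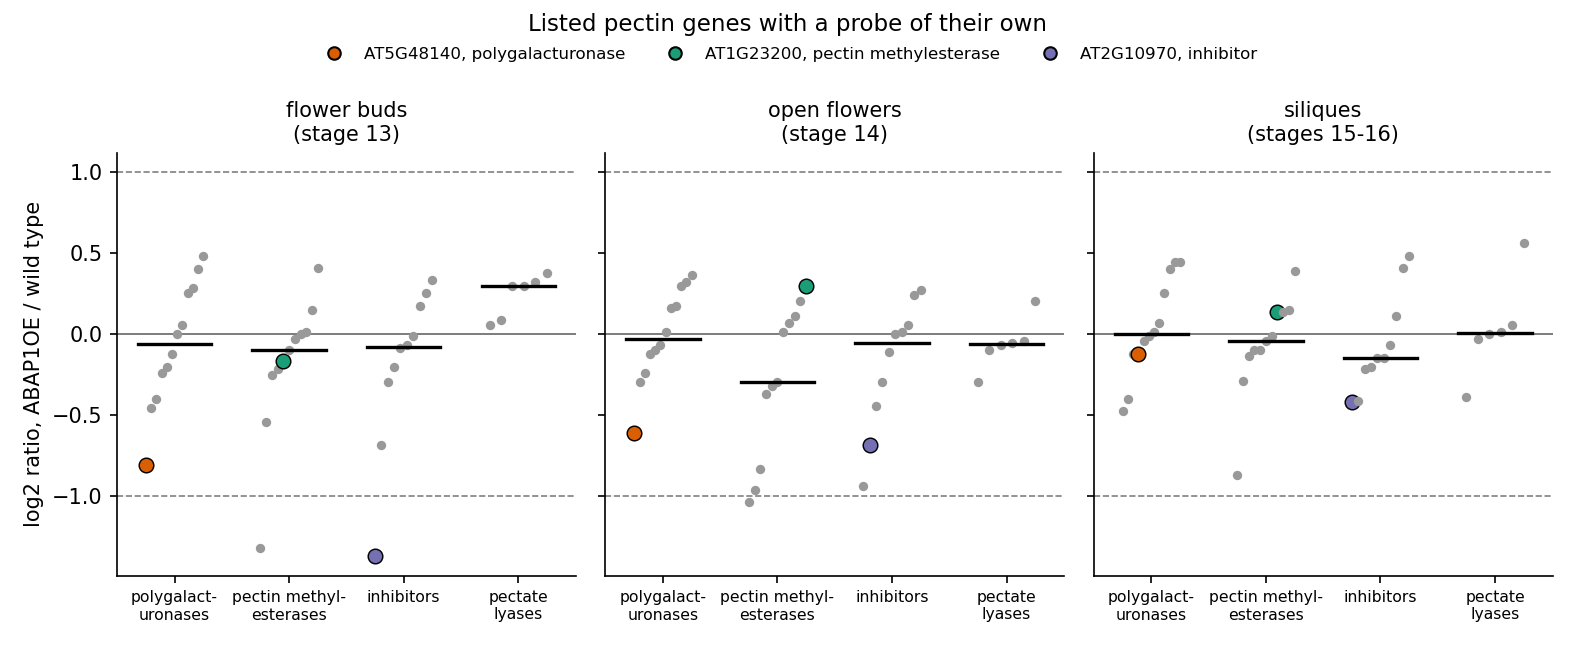
Log2 ratio of ABAP1OE over WT (vertical axis) of the listed polygalacturonase, pectin methylesterase, inhibitor and pectate lyase genes with a probe of their own, 1 point per gene ordered by value within a class, with a bar at the class median and dashed lines at 2-fold, in 1 panel per stage. AT5G48140 and AT2G10970 lie lowest of the points of their classes in flower buds, at -0.81 and -1.37, and AT1G23200 is the highest methylesterase gene in open flowers at 0.30.

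Many pectin genes are close copies of each other and share probes, so the classes were also read from probes that list several genes, all of them of 1 class. The 3 genes are on none of these probes. There were 100 such probe values, after identical values of the same genes had been counted once, and they cover 144 genes, none of which is named from them. In flower buds 28 of the 100 (28.0%) were at least 2-fold lower and 2 higher, where 5.46% of all probes of several genes were lower and 92 of 7016 higher. The inhibitors had 10 of 26 (38.5%), the methylesterases 10 of 27 (37.0%), the polygalacturonases 5 of 29 (17.2%) and the pectate lyases 3 of 15 (20.0%). In open flowers 11 of 100 were lower, beside 3.18% of all such probes, and in siliques 8 of 100, beside 2.42%. Values 2.2 or more from 0, which include the block at -2.21, made up part of these counts. Without them 22 of 94, 7 of 95 and 2 of 94 were lower from flower buds to siliques, beside 3.03%, 1.09% and 0.957% of all such probes.

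The shared inhibitor probes had median log2 ratios of -0.39, -0.34 and -0.41 from flower buds to siliques. The methylesterase probes had -0.26, -0.30 and -0.30, and the polygalacturonase probes 0.00, -0.01 and -0.24. The pectate lyase probes had -0.11, -0.11 and -0.03, with 9 of 15 below 0 in flower buds, unlike the 6 pectate lyase genes with a probe of their own, which were all above 0. Over all probes of several genes the medians were -0.01, -0.01 and 0. Single genes on own probes thus gave class medians closer to 0 in flower buds for inhibitors and methylesterases than the shared probes did. The study's list of changed genes was drawn from the same flower bud arrays, and 19 of the 100 probe values name at least 1 of its genes. Of these 19, 15 were at least 2-fold lower in flower buds, which the choice of that list fixes in large part. Of the other 81, 13 (16.0%) were lower and 2 higher, with a median of -0.04. With values of 2.2 or more from 0 also left out, 8 of 76 were lower, and the inhibitors had 0 of 14. Of all probes of several genes, 3.03% were lower when only such far values were left out. That share still holds the probes that name genes of the study's list, so the comparison is not like with like.

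**Figure D4:**
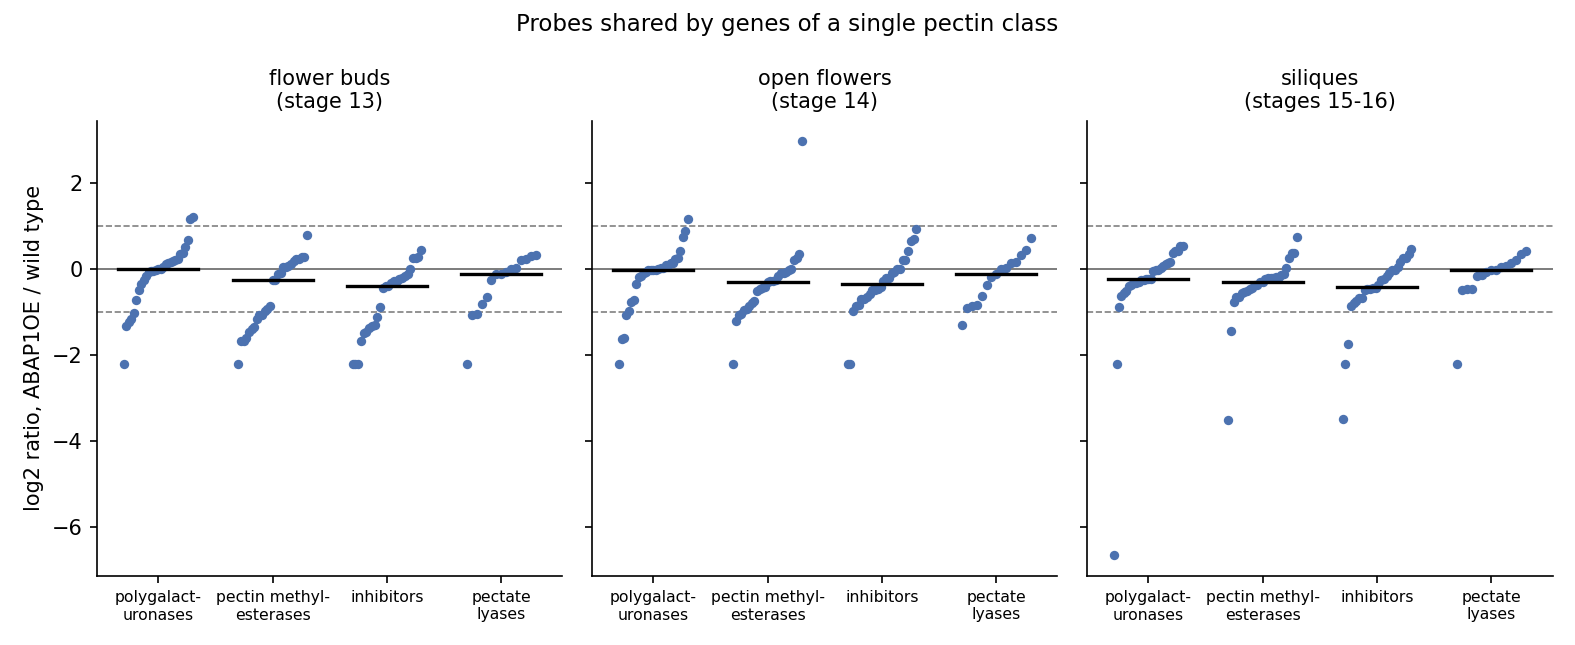
Log2 ratio of ABAP1OE over WT (vertical axis) of probes that list several genes of a single pectin class, 1 point per probe value ordered within a class, with a bar at the class median and dashed lines at 2-fold, in 1 panel per stage. In flower buds 10 of 26 inhibitor probes and 10 of 27 methylesterase probes lie at or below the lower dashed line.

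Pollen is a tissue that holds much pectin enzyme transcript, and in pooled flowers fewer cells of a type and less RNA per cell cannot be told apart. Of a list of 45 genes of mature pollen, 4 of which are also in the pectin list, 1 had a probe of its own. This was PLIM2b, whose product bundles actin in pollen, with log2 ratios of -0.98, -0.29 and -0.15 from flower buds to siliques. A probe shared by 2 genes of that list had -0.94, -0.43 and -0.61. In the labelled direction both probes were below 0 at each stage and lowest in flower buds, as were AT2G10970 and AT5G48140. Ratios below 0 at all 3 stages were found in 838 of 5413 named genes (15.5%), a share that does not ask for the lowest ratio in flower buds. Ratios below 0 throughout, lowest in flower buds and highest in siliques, as for PLIM2b, AT2G10970 and AT5G48140, were found in 146 genes (2.70%). The part of pollen content in the ratios of the pectin genes was not tested. ABAP1 itself was not analysed here.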

How the data were processed

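The deposited values are log2 ratios of ABAP1OE over WT, made by the authors from 2-colour Operon oligonucleotide arrays with both dye orientations, with 3 biological replicates combined into 1 column per stage. How background was treated, values were normalized and replicates averaged is not given in the sources used here. Of 26545 probes, the platform annotation gave 1 gene symbol to 5784, several to 7497 and none to 13264. Single-symbol probes were matched by gene identifier to the TAIR10.1 RefSeq table (5756 matched), and probes of a gene were averaged. A gene was counted at 2-fold.

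The 3 genes and the lists were chosen with earlier results of these data known. The named genes are the 3 genes, listed pectin genes at 2-fold at any stage, the farthest gene of each class in flower buds, the 5 nearest genes to each and chromosomal neighbours. Other genes at the ends of a class range were named after their values were seen. Alternatives were centring, the farthest probe, shared probes, column scaling, sizes of 1.5-fold and 3-fold, the mean, leaving out values 2.2 or more from 0, and turning the open flower and silique columns. Counting was tested on simulated data. Planned searches of promoters and proteins were not run, since no sequences were used here. Python 3.11.15, numpy 2.4.6 and pandas 2.3.3 were used.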

Additional observations from a re-analysis of the deposited data

Results flagged for a closer look

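AT1G23200, the pectin methylesterase gene, had ratios on opposite sides of WT at different stages. Its log2 ratio was -0.16 in flower buds and 0.30 in open flowers, a difference of 0.46, and 0.14 in siliques, a difference of 0.30 from flower buds. The direction of the later columns rests on labels, and turned they would be -0.30 and -0.14, on the same side as flower buds. In size, the flower bud and silique ratios were smaller than the typical SD between probes of a gene, 0.17 and 0.26. The open flower ratio, 0.2987, was beyond the typical SD of 0.15 but just inside the larger SD, 0.2995, from the mean variance. Ratios below 0 in flower buds and above 0 at both later stages were found in 586 of 5413 genes (10.8%). Each stage has 1 combined ratio, so the differences between stages were not tested.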

How the results depend on the processing

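No paired analysis was possible because the replicates of a stage were deposited as a single combined ratio, so no replicate could be left out and nothing was tested. Of the 36 recomputed ratios of the 3 genes, 30 were equal to the value as reported, since column medians were already 0, each gene has 1 own probe and none is on a shared probe. These settings could not move them and show no stability. Giving all columns the spread of the flower bud column moved the other 6 by less than the SD between probes of a gene, and AT2G10970 in siliques went from -0.42 to -0.32.

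Counts of the listed genes did move. At 1.5-fold the lower genes numbered 4, 6 and 1 of 41 from flower buds to siliques, beside 7.70%, 5.58% and 6.19% of all named genes. In flower buds and open flowers these counts include AT2G10970 and AT5G48140, chosen with their ratios known, so nothing is read from them. At 3-fold the lower genes numbered 0 in flower buds and 0 in open flowers, beside 2.53% and 1.98%. With shared probes kept under each gene, 179 genes had a value, but these held 120, 117 and 117 distinct values, so that many counted genes repeat a probe value. Of them 34, 16 and 14 were lower, beside 4.64%, 3.33% and 2.43% of all genes treated alike, and 2 and 4 were higher in flower buds and open flowers, beside 0.622% and 0.715%. The median of the listed genes went from -0.03, -0.07 and -0.03 to -0.10, -0.12 and -0.19. Counting shared probes of 1 class as probes, a choice made after seeing the data, gave 28, 11 and 8 of 100 lower. Beside these stand 5.46%, 3.18% and 2.42% of all probes of several genes. It gave 2 and 2 higher in flower buds and open flowers, beside 92 and 74 of 7016 such probes. The cause was not tested. Turning the open flower and silique columns, also chosen after seeing the data, gave AT5G48140 0.61 and 0.12, AT1G23200 -0.30 and -0.14, AT2G10970 0.69 and 0.42, list medians of 0.0704 and 0.0286, and 0 genes lower and 1 higher in open flowers. Drawing the list from gene descriptions gave no gene with an own probe and has no value. The signal over background is unknown.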
